A study of Caenorhabditis elegans with 10 samples.

Results

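The regions described here are 401 binding sites of the transcription factor PQM-1 in whole C. elegans nematodes collected as day 1 adults. They are the nuclear PQM-1 peaks of the strain OP201 that overlapped a CEH-60 peak by 1 bp or more and overlapped no PQM-1 peak of DLS422, a strain with a deletion in ceh-60. They made up 401 of 6001 OP201 peaks, and 14.9% (13.6 to 16.3%) of the 2697 OP201 peaks that carried a CEH-60 peak. They are called lost sites below, and the other 2296 peaks with CEH-60 are called kept sites. Lost means that no peak was called in DLS422, not that the signal there was 0. The sites were chosen by the presence or absence of called peaks in these 3 lists, so those 3 features are given as a description, with no test.

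Chromatin immunoprecipitation followed by sequencing (ChIP-seq) recovers the DNA bound by a protein, and each of 8 immunoprecipitated libraries had 1 deposited peak list. PQM-1 was recovered with the anti-FLAG antibody M2 from DLS422 (ceh-60(ok1485); wgIs201) and from OP201 (unc-119(tm4063); wgIs201), so both strains carry the PQM-1 transgene wgIs201, whose promoter no source used here names. The label of DLS422 does not list unc-119(tm4063). CEH-60 was recovered with the anti-HA antibody 3F10 from DLS435 (pqm-1(ok485); ceh-60(rhd116)) and from DLS395 (ceh-60(rhd116)), whose replicate 2 served for the choice of sites. These 4 libraries were crosslinked with 1% formaldehyde for 5 min. The other 4, crosslinked with 2% formaldehyde for 30 min, were CEH-60 replicate 1 and a CEH-60 library with the anti-HA antibody mIgG1, both from DLS395, and CEH-60 and UNC-62 from DLS396 (ceh-60(rhd116); gaIs285), with 3F10 and with the anti-GFP antibody 3E6. Apart from the CEH-60 replicates each group was 1 library of whole animals, so no p-value is given, and binding in the intestine cannot be told apart from binding in other tissues. Wilson 95% intervals on shares cover counting error among peaks only.

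CEH-60 belongs to the PBX family of homeodomain proteins and UNC-62 to the MEIS family, and proteins of these families bind DNA as partners. In adults, CEH-60 and UNC-62 activate the vitellogenin genes of the intestine, which encode the yolk proteins loaded into oocytes. PQM-1 is a zinc finger factor of the intestine known for its part in stress resistance, development and the insulin pathway, where it acts in opposition to the forkhead factor DAF-16. Fold enrichment below is the authors' own value for the signal at a peak summit over its local background, and it is used to describe and rank peaks within a list, not to compare lists. A gene is called bound, or at a site, where a summit fell within the window that reaches 1000 bp out from and 200 bp into either end of the gene, because gene strand was not known. By this rule a summit that lies inside 1 gene can also count for a neighbour. Coordinates follow the deposited lists, counted from 1, and no source used here names their genome build.

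The vitellogenin genes were among those with lost sites. Of the 6 genes, 0 had a PQM-1 peak at an end in DLS422 and 5 (vit-1 to vit-5) had one in OP201, and each of those 5 was at a lost site. Over all protein-coding genes, 230 of the 3376 genes bound in OP201 (6.81%) were at a lost site. At vit-6 a single OP201 interval of 6843 bp (IV:8260607-8267449, 2.79-fold) lay along the gene, with its summit too far inside to count as a gene end, and it too was lost, 34894 bp from the nearest DLS422 interval. Over this vit-6 interval the strongest CEH-60 folds were 2.56 in DLS435, 2.91 in replicate 2, 17.2 in replicate 1, 15 with mIgG1 and 27.8 in DLS396, and UNC-62 had 12. The summits of these peaks lay at −2093 to −2082 bp from the PQM-1 summit. The background for these counts is the share of OP201 peaks with no overlapping DLS422 peak, which was 32.1% over all 6001 peaks and 14.9% among those with a CEH-60 peak. Since the rule used that contrast, the counts at the vitellogenins describe the sites and test nothing.

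At vit-5 the lost site X:3403199-3403641 had a fold of 3.03 in OP201 and lay 68475 bp from the nearest DLS422 interval. CEH-60 peaks over it had folds of 3.69 in DLS435, 4.15 in replicate 2, 17.1 in replicate 1, 16 with mIgG1 and 25.1 in DLS396, and the UNC-62 peak had 11.8. This vit-5 peak ranked 1137 of 6001 by fold in OP201, whereas the CEH-60 peak ranked 43 of 3430 in replicate 2 and the UNC-62 peak ranked 39. The PQM-1 and CEH-60 summits were 12 bp apart. Further lost sites at and inside vit-5 lay at X:3406808-3407261 (2.41-fold) and X:3408467-3409499 (2.72-fold). The former had no peak in DLS435, mIgG1 or UNC-62, and the latter had none in UNC-62.

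At vit-1 the site X:7727513-7727956 had a PQM-1 fold of 2.94 in OP201, with CEH-60 folds of 2.51 in DLS435, 3.26 in replicate 2, 18.6 in replicate 1, 13.7 with mIgG1 and 25.5 in DLS396 and an UNC-62 fold of 9.50. At vit-4 the site X:3563978-3564819 had 2.75 for PQM-1, and CEH-60 had 2.53 in DLS435, 3.66 in replicate 2, 16.3 in replicate 1, 15.3 with mIgG1 and 24.5 in DLS396, beside 9.19 for UNC-62. At vit-3 the site X:3572559-3572821 had 2.13 for PQM-1, and CEH-60 had 2.02 in DLS435, 2.66 in replicate 2, 17 in replicate 1, 17.5 with mIgG1 and 26.2 in DLS396, beside 12.6 for UNC-62. At each of these sites a peak was therefore present in 7 of the 8 lists, including CEH-60 in the strain without pqm-1, and missing for PQM-1 without ceh-60. PQM-1 peaks were nevertheless called in DLS422 further off. The nearest lay 1425 bp from the site at vit-1 (2.99-fold), 6117 bp at vit-4 (2.50-fold) and 3258 bp at vit-3 (5.06-fold). A further lost site at vit-1 (X:7727124-7727366, 2.09-fold) had no peak in DLS435, mIgG1 or UNC-62. It lay 1036 bp from a DLS422 interval. Of the vitellogenins, vit-3 to vit-5 are nearly the same in sequence, and no source used here says how reads that fit more than 1 of them were placed, so their sites are not independent.

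vit-2 carried the longest run of lost sites. At the site by its gene end (X:5100548-5101393) PQM-1 had 2.58, CEH-60 had 2.23 in DLS435, 2.79 in replicate 2, 21 in replicate 1, 21.1 with mIgG1 and 31.5 in DLS396, and UNC-62 had 13.3. Further lost sites followed along the gene at X:5101714-5102699 (2.11-fold), X:5103247-5103974 (2.46) and X:5104900-5106691 (2.37). With sites on either side, 6 lost sites lay within 7914 bp here, and the nearest DLS422 interval was 2383 bp or more from those at vit-2. CEH-60 replicate 2 peaks over the 3 sites further along the gene had folds of 1.89 to 1.93, and DLS435 had a peak at none of these 3.

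**Figure D1:**
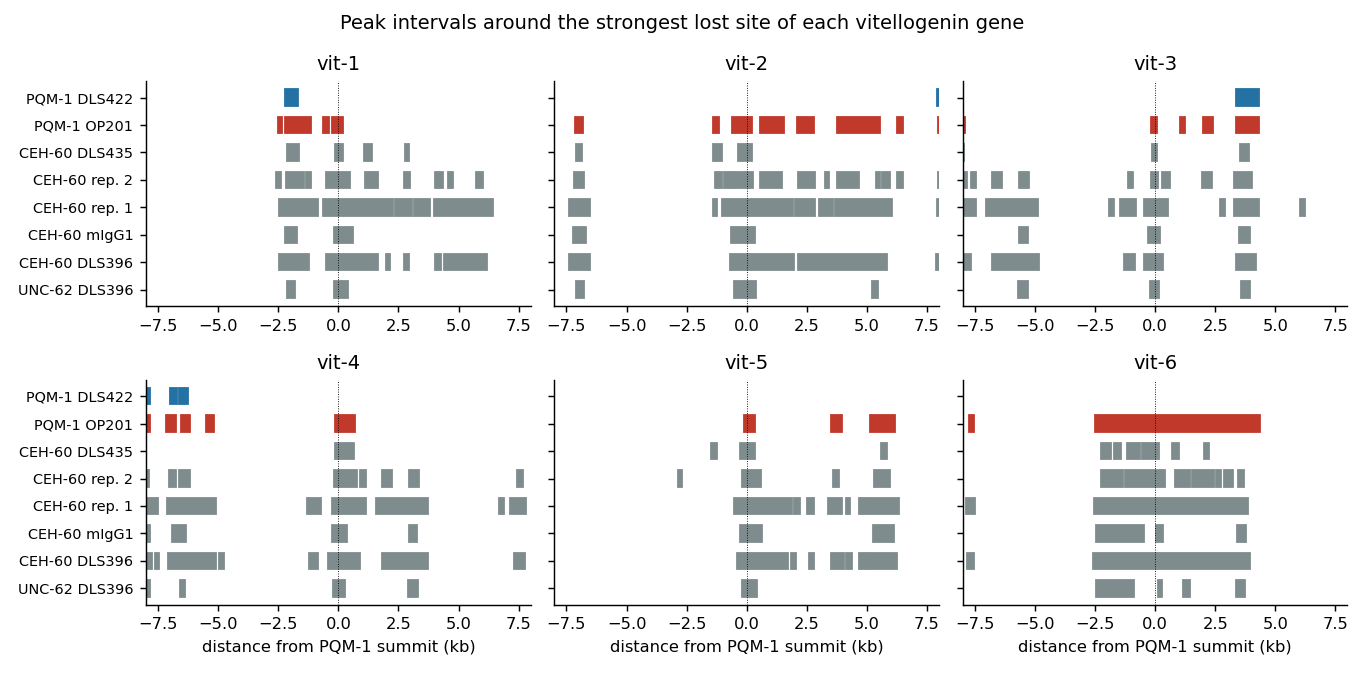
Peak intervals of the 8 lists around the strongest lost site of each vitellogenin gene, drawn as bars against the distance in kb from the PQM-1 summit in OP201 (dotted line at 0). PQM-1 in DLS422 (top row, blue) has no interval at the dotted line in any of the 6 panels. PQM-1 in OP201 (red) and the CEH-60 and UNC-62 lists (grey) do, apart from small offsets of mIgG1 and UNC-62 at vit-6. At vit-6 the strongest peak of each CEH-60 list and of UNC-62 has its summit at −2093 to −2082 bp.

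Lost sites had lower PQM-1 folds in OP201 than kept sites. Their median fold was 2.22 (range 1.58 to 3.75), against 2.92 (range 1.56 to 6.65) at kept sites and 2.38 over all OP201 peaks, and their median length was 286 bp, against 541 bp at kept sites and 339 bp over all OP201 peaks. The OP201 peaks lost without a CEH-60 replicate 2 peak had a still lower median fold, 2.08. A −log10 q-value under 5 was found at 15.7% of lost sites (12.5 to 19.6%) against 2.09% of kept sites (1.58 to 2.76%) and 15.3% of all OP201 peaks. CEH-60 fold differed less between the classes, with a median of 2.27 in replicate 2 (range 1.57 to 4.88) at lost sites and 2.42 (range 1.56 to 5.42) at kept sites. The lost sites thus reached nearly the whole range of CEH-60 folds but not that of PQM-1 folds.

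**Figure D2:**
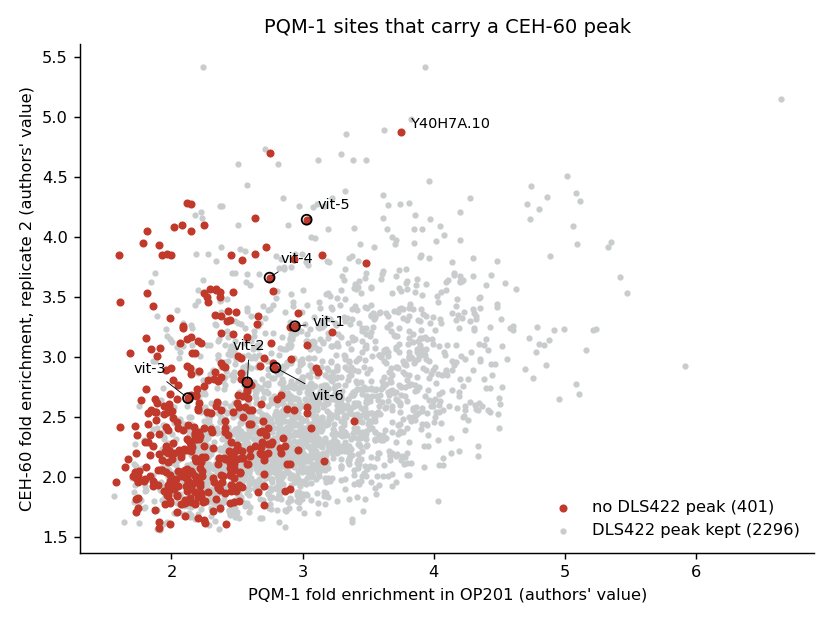
PQM-1 fold enrichment in OP201 (x axis) against CEH-60 fold enrichment in replicate 2 (y axis) for the 401 lost sites (red) and 2296 kept sites (grey), 1 point per OP201 peak. Red points end at 3.75 on the x axis but reach 4.88 on the y axis, and circles mark the strongest lost site of each vitellogenin gene.

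Among lost sites at a gene end, the highest PQM-1 fold was that by Y40H7A.10 (IV:15215512-15215853). PQM-1 had 3.75 in OP201 there, which ranked 312 of 6001, CEH-60 had 3.40 in DLS435, 4.88 in replicate 2, 20.3 in replicate 1, 20.1 with mIgG1 and 33.3 in DLS396, and UNC-62 had 11. The nearest DLS422 interval was 177393 bp away. It was followed by gldi-3 (3.48), nsy-1 with F59A6.13 (3.16), C06H5.6 (3.10), vit-5, hsd-2, a hydroxysteroid dehydrogenase gene (3.03), dod-6, named for acting downstream of DAF-16 (3.03), cTel55X.1 (2.97), the homeobox gene pha-2 of the pharynx (2.96) and vit-1. Of these, gldi-3, nsy-1, hsd-2, dod-6 and cTel55X.1 had no CEH-60 peak in DLS435, and cTel55X.1 had no UNC-62 peak. gldi-3 also had a kept site at an end (2.28-fold), and its lost site lay 1827 bp from a DLS422 interval. A kept site was nearest to nsy-1 too (2.97-fold), though not at its ends.

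nsy-1, a kinase gene of the p38 immune pathway, had the site II:5022356-5022672. Its PQM-1 fold was 3.16, its CEH-60 folds were 2.14 in replicate 2, 9.28 in replicate 1, 5.5 with mIgG1 and 14 in DLS396, and its UNC-62 fold was 4.0. dod-6 had the site III:10196803-10197311, with 3.03 for PQM-1, CEH-60 folds of 2.53 in replicate 2, 9.23 in replicate 1, 5.32 with mIgG1 and 12.9 in DLS396, and 3.85 for UNC-62. That site lay 107901 bp from the nearest DLS422 interval, whereas the site at hsd-2 (X:5007060-5007255) lay 152 bp from one. By contrast, the 5 highest kept sites lay at or nearest to srz-62, a chemoreceptor gene (5.59 in DLS422 and 6.65 in OP201), fbxa-30 (4.73 and 5.92), the ornithine aminotransferase gene oatr-1 (5.46 and 5.47), the scavenger receptor gene scav-6 (5.14 and 5.42) and C08E8.3 (4.61 and 5.35).

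Ranked by CEH-60 fold, the lost sites at gene ends began with Y40H7A.10 (4.88 in replicate 2), the short-chain dehydrogenase gene dhs-26 (4.70), amt-4, an ammonium transporter gene (4.29), vit-5, and calu-1, which encodes a calumenin and had a pair of lost sites under 1 CEH-60 interval (4.10). The F-box gene fbxa-147 (4.05), mfsd-8.1 (3.95), W07A12.8 (3.94) and the cohesin loader gene mau-2 (3.91) came next. A DLS422 interval lay 113 bp from the site at mfsd-8.1, 820 bp from that at W07A12.8 and 1952 bp or more from the others. PQM-1 folds at these genes were 3.75 at Y40H7A.10, 3.03 at vit-5, 2.75 at dhs-26, 2.12 at amt-4, 2.25 and 2.08 at calu-1, 1.81 at fbxa-147, 1.78 at mfsd-8.1, 1.91 at W07A12.8 and 2.72 at mau-2, on either side of the list's median of 2.38. Each of them had a CEH-60 peak in DLS435, with folds of 2.25 to 3.69, and each but amt-4 had an UNC-62 peak, which at calu-1 was 14.2-fold and ranked 14 in that list.

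The share of lost PQM-1 peaks is given here by CEH-60 and PQM-1 fold as a description, since the rule used these values. Of OP201 peaks with a CEH-60 replicate 2 peak 14.9% had no DLS422 peak, against 46.1% of the 3304 without one. Without CEH-60 means only that replicate 2 had no peak there. Among these 3304, CEH-60 replicate 1 had a peak at 61.0% of those lost and 74.5% of those kept. The weakest quartile of PQM-1 fold held 255 peaks with CEH-60 and 1305 without, and the strongest 1271 and 225, so the shares were also set side by side within quartiles of OP201 fold. In the weakest quartile 49.8% of peaks with CEH-60 were lost (43.7 to 55.9%), against 61.6% of those without (58.9 to 64.2%). In the second the shares were 31.9% (27.5 to 36.5%) against 47.5% (44.6 to 50.6%), in the third 15.5% (13.1 to 18.3%) against 27.9% (24.7 to 31.3%), and in the strongest 2.05% (1.4 to 2.98%) against 7.56% (4.77 to 11.8%). In both kinds of site the share was highest in the weakest quartile, and within each quartile it was lower at sites with CEH-60. The DLS422 list is also shorter, at 5020 peaks, of which 16.6% overlapped no OP201 peak. Read depth is unknown, so a smaller yield of the DLS422 library and weaker binding in that strain cannot be told apart.

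**Figure D3:**
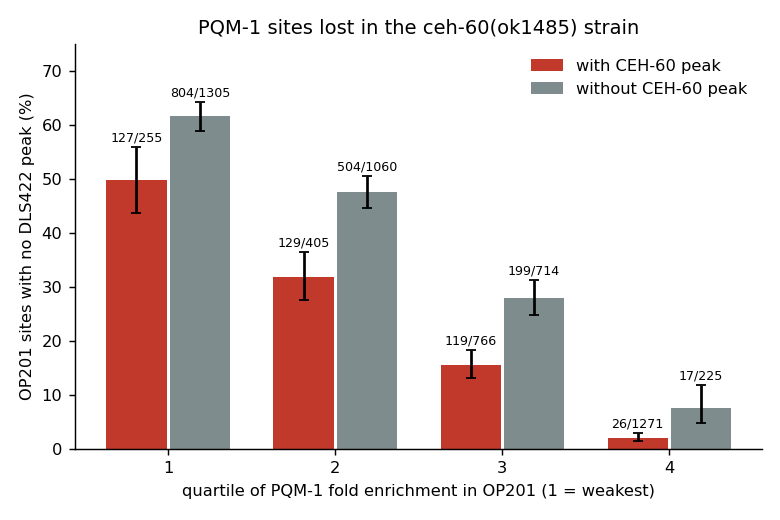
Share of OP201 PQM-1 peaks with no DLS422 peak (y axis, %) by quartile of OP201 fold (x axis), for peaks with a CEH-60 replicate 2 peak (red) and without one (grey), with Wilson 95% intervals and counts above the bars. The share falls to 2.05% with CEH-60 and 7.56% without in the strongest quartile, and the red bar is the lower of each pair.

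Among sites with CEH-60, the share lost was also described by tercile of CEH-60 fold. In the weakest quartile of PQM-1 fold, 63.5% of sites in the top tercile of CEH-60 fold were lost (33 of 52, 49.9 to 75.2%), against 44.7% in the bottom tercile (59 of 132, 36.5 to 53.2%). In the second quartile the shares were 48.3% (42 of 87, 38.1 to 58.6%) against 26.6% (55 of 207, 21 to 33%), and in the third 19.8% (39 of 197, 14.8 to 25.9%) against 13.8% (35 of 254, 10.1 to 18.6%). In the strongest quartile they were 2.02% (14 of 693) against 2.70% (5 of 185). The share was the higher one in the top tercile in 3 of the 4 quartiles, which is a description of the chosen sites and was not tested. Over all folds together the order was the other way, with 12.4% lost in the top tercile of CEH-60 fold and 19.8% in the bottom tercile. The strongest quartile of PQM-1 fold held 693 of 1029 sites in the top tercile and 185 of 778 in the bottom tercile.

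At the head of the CEH-60 list lost and kept sites were mixed. Each of the 100 CEH-60 peaks of highest fold in replicate 2 carried a PQM-1 peak in OP201, and 20 of them carried a lost one (20.0%, 13.3 to 28.9%). Of the 363 peaks ranked 101 to 500 with a PQM-1 peak, 39 carried a lost one (10.7%, 7.96 to 14.4%). The share was 17.1% (15 to 19.3%) among those ranked from 2001 to the end of the list, 195 of 1143.

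CEH-60 was recovered in the strain without pqm-1, DLS435, at a minority of lost sites. A DLS435 peak overlapped 168 of 401 lost sites (41.9%, 37.2 to 46.8%), against 1416 of 2296 kept sites (61.7%, 59.7 to 63.6%). As background, 47.8% of the 3430 CEH-60 peaks of replicate 2 had no overlapping DLS435 peak. Recovery in DLS435 followed CEH-60 fold, and within terciles of that fold lost sites still had the lower shares. These were 79.7% against 89.6% in the top tercile (intervals 71.9 to 85.7% and 87.4 to 91.4%), 31.1% against 54.3% in the middle tercile (23.5 to 39.9% and 50.8 to 57.8%) and 18.8% against 30.4% in the bottom tercile (13.4 to 25.7% and 27.0 to 34.2%). By quartile of PQM-1 fold the shares were alike in the weakest 2 quartiles, at 37.0% against 34.4% and 41.9% against 39.5%, and lower at lost sites in the others, at 45.4% against 53.3% and 13 of 26 sites against 73.7%. The difference between lost and kept sites therefore moved with PQM-1 fold as well.

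The lists made with long crosslinking covered most lost sites, although the choice of sites had not used them. CEH-60 replicate 1 had a peak at 96.8% of lost sites (94.5 to 98.1%) and 99.1% of kept sites, DLS396 at 96.0% and 98.6%, and mIgG1 at 76.6% and 78.3%. Over all 6001 OP201 peaks the shares were 82.0% for replicate 1, 81.5% for DLS396 and 44.7% for mIgG1. UNC-62 had one at 218 of 401 lost sites, which is 54.4% (49.5 to 59.2%), against 53.5% of kept sites (51.5 to 55.6%) and, among OP201 peaks without CEH-60, 5.91% of those lost and 5.79% of those kept. Within quartiles of PQM-1 fold, the UNC-62 share was the higher one at lost sites. The shares were 46.5% (38 to 55.1%) against 31.3% (23.9 to 39.7%) in the weakest quartile and 49.6% (41.1 to 58.1%) against 35.9% (30.4 to 41.7%) in the second. They were 62.2% (53.2 to 70.4%) against 44.4% (40.6 to 48.2%) in the third and 80.8% (62.1 to 91.5%) against 64.5% (61.8 to 67.1%) in the strongest, where only 26 sites were lost. The intervals were apart in the third quartile alone. Within terciles of CEH-60 fold the UNC-62 shares were 29.9% against 28.5% in the bottom tercile, 52.9% against 45.4% in the middle and 85.2% against 77.8% in the top tercile, with overlapping intervals in each. The higher share was not particular to UNC-62, since mIgG1 had 67.7% of lost against 51.6% of kept sites in the weakest quartile of PQM-1 fold, 71.3% against 65.6% in the second, 87.4% against 72.3% in the third and 96.2% against 86.9% in the strongest. By tercile of CEH-60 fold mIgG1 had 56.5% against 59.5% in the bottom, 83.2% against 75.1% in the middle and 94.5% against 94.0% in the top.

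**Figure D4:**
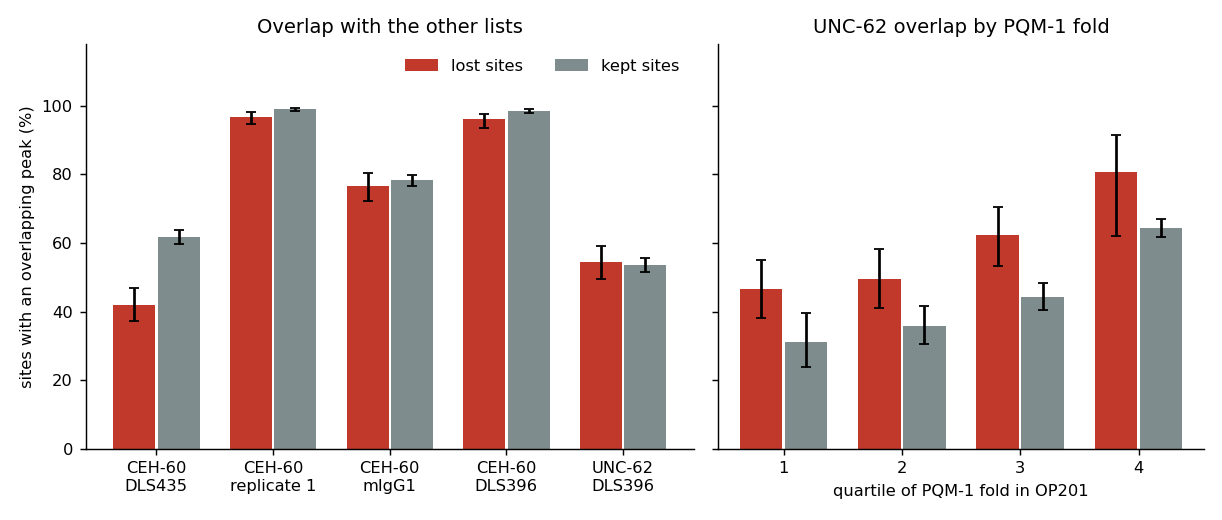
Left, share of lost (red) and kept (grey) sites with an overlapping peak in each of 5 lists that the choice of sites had not used, and right, the share with an UNC-62 peak by quartile of PQM-1 fold in OP201, both in % with Wilson 95% intervals. Lost sites are lower for CEH-60 in DLS435 (41.9% against 61.7%), level for UNC-62 over all sites, and higher for UNC-62 in each of the 4 quartiles.

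The lost sites were not uniform in these further lists. A peak in all 5 was found at 138 of them (34.4%), which had a median CEH-60 fold of 2.88, and the vitellogenin gene-end sites named above for vit-1 to vit-5 with UNC-62 and DLS435 peaks are among these. Another 77 (19.2%) had none of DLS435, UNC-62 and mIgG1, with a median CEH-60 fold of 1.99, and 11 had none of the 5 lists. UNC-62 and mIgG1 without DLS435 made up 76 more. Median PQM-1 fold differed little among these kinds, with 2.35 at the 138 sites, 2.11 at the 77 and 2.33 at the 76.

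PQM-1 and CEH-60 summits lay close together at lost sites, slightly less so than at kept ones. The median distance was 36 bp (quartiles 12 and 81) at lost sites and 29 bp (quartiles 12 and 59) at kept sites. Within 100 bp lay 79.3% of lost (75.1 to 83.0%) and 86.7% of kept sites (85.2 to 88.0%). The 401 lost sites lay under 396 CEH-60 intervals, of which 12 held 2 lost sites and 1, at ndg-4 and mstr-2, held 4. A kept site lay under the same CEH-60 interval as a lost one in 16 cases.

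DLS422 peaks were near some lost sites and far from others. The nearest DLS422 interval was a median of 3258 bp away (range 40 to 242051), within 200 bp at 34 sites, within 1000 bp at 122 and more than 10000 bp away at 137. The sites just inside the rule were one at the cystathionine synthase gene cbs-1 (X:10054015-10054203, 2.18-fold, 40 bp from a DLS422 interval) and those nearest to F11C1.4 (45 bp) and oac-54 (47 bp). The sites just outside it, which overlapped a DLS422 interval least, were nearest to C15C7.4 (9 bp of overlap), EGAP2.2 (31 bp) and the kinase gene mak-1 (34 bp).

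**Figure D5:**
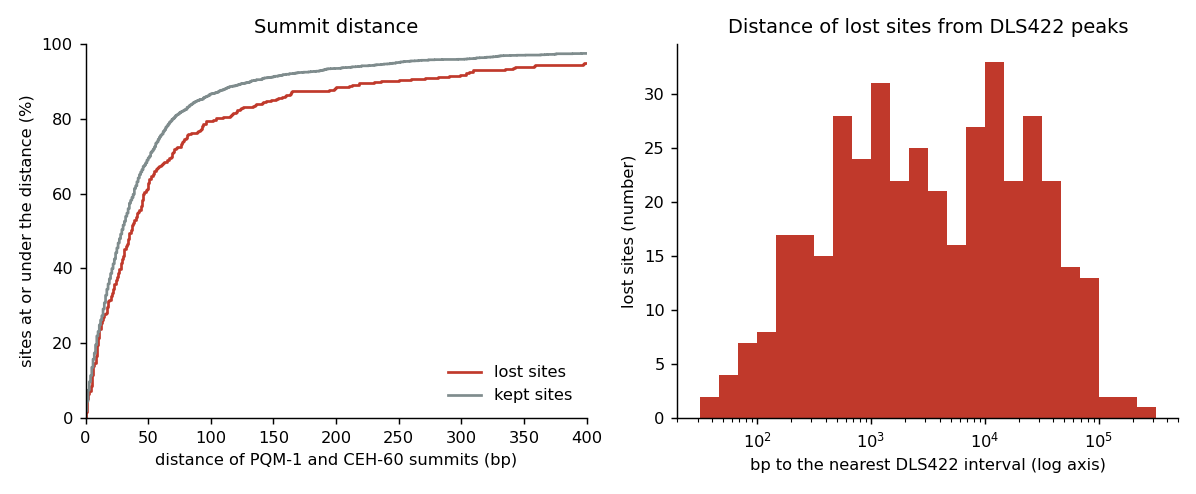
Left, cumulative share of lost (red) and kept (grey) sites (y axis, %) by the distance between PQM-1 and CEH-60 summits in bp (x axis, up to 400 bp). Right, number of lost sites by the distance in bp to the nearest DLS422 interval (log axis), which spreads from 40 to 242051 bp around a median of 3258 bp.

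Lost sites were common on the X chromosome, which held 148 of 401 (36.9%, 32.3 to 41.7%), against 29.4% of kept sites (27.6 to 31.3%) and 25.3% of all OP201 peaks. On X 18% of sites with CEH-60 were lost (15.5 to 20.7%), against 13.5% on the autosomes (12 to 15.1%), where the shares ran from 11% on II to 15.8% on V. At like PQM-1 fold the X shares of lost and kept sites were close, at 38.6% against 39.8%, 38.8% against 39.5% and 31.9% against 35.7% from the weakest to the third quartile. They were 42.3% (11 of 26, 25.5 to 61.1%) against 22.9% in the strongest, where vit-1 and vit-5 are among the 11. Summits lay inside a protein-coding gene at 45.6% of lost sites (40.8 to 50.5%) and 38.5% of kept sites (36.5 to 40.5%), and at a gene end at 45.6% and 52.5% (50.5 to 54.6%).

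Of the 230 genes with a lost site, 183 had no DLS422 peak at either end (79.6%, beside 28.7% of all 3376 genes bound in OP201), 47 had one there, and 34 also had a kept site. These counts follow in part from the choice of sites and support nothing. UNC-62 bound 127 of the 230 genes (55.2%), against 818 of the 1488 genes at kept sites (55.0%) and 31.7% of all 3376 genes bound in OP201.

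Other listed genes of yolk production and fat metabolism had no lost site at a gene end. Of the 15 regulators of vitellogenesis found in the gene table, 10 were bound in OP201 and 0 were at a lost site, beside 6.81% of all bound genes. elt-2, which encodes a GATA factor that directs intestinal genes, had PQM-1 peaks of 3.21 in DLS422 and 2.97 in OP201, and unc-62 had 2.40 in DLS422 and 2.50 in OP201. Fatty acid synthesis and desaturation had 0 of 17 bound genes at a lost site, fatty acid oxidation 0 of 18, lipid storage, lipases and binding 0 of 17, and intestine markers 0 of 9. With so few bound genes in each list, a count of 0 does not set them apart from the 6.81%, and no test was made. Lost sites with summits further inside a gene, such as those in acs-5 (2.40-fold) and acdh-7 (2.08-fold), were not counted. Without regard to CEH-60, 8 of the 18 bound genes of fatty acid oxidation and 1 of the 17 of synthesis had no peak at an end in DLS422, beside 28.7% of all 3376 genes bound in OP201.

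Immune genes and gene families are set beside the 6.81% of all bound genes that were at a lost site. Innate immune effectors had 2 of 32 bound genes at a lost site, thn-2, a thaumatin-family gene (2.37), and irg-7 (1.91), and immune regulators had 1 of 7, nsy-1. Among families, nuclear hormone receptors had 2 of 67 (nhr-34 and nhr-47), C-type lectins 2 of 61 (clec-178 and clec-179), F-box genes of the fbxa group 2 of 54, glucuronosyltransferases 1 of 35 (ugt-6), cytochrome P450 genes 3 of 26, dod genes 1 of 10, heat shock proteins 2 of 5 (hsp-3 and hsp-90) and insulin-like peptides 1 of 8 (ins-13). The P450 genes were cyp-33E2 and cyp-33E3, which share a site (IV:8614788-8614967, 2.61), and cyp-35A2 (V:7364103-7364391, 2.81). The site at clec-179 (IV:7182599-7183267), whose summit lay inside the neighbouring gene cest-10, had 2.93 for PQM-1. It had 3.01 for CEH-60 in DLS435, 3.82 in replicate 2 and 12.7 for UNC-62. Likewise, the summits at clec-178, nhr-47, irg-7 and ugt-6 lay inside skn-1, hpo-15, F40F4.7 and ugt-4, respectively. Some of the listed genes still had a DLS422 peak at an end. Such a peak was missing for 1 of the 2 effectors, 1 of the 2 lectins and 2 of the 3 P450 genes. It was missing for 1 of the 2 heat shock genes and present at ugt-6. No test was made of counts this small, and 17 of the 34 lists had 0 genes at a lost site.

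PQM-1 bound some markers of tissues other than the intestine, beside 16.9% of all protein-coding genes in OP201. The bound genes at a lost site were pha-2 and pha-4, 2 of 2 bound among 4 markers of the pharynx, and the cofilin gene unc-60, 1 of 2 bound among 6 of muscle. These stand beside 6.81% of all genes bound in OP201, and counts this small were not tested. pha-4, which encodes the FoxA factor of the pharynx and gut, had 2.22 for PQM-1, 1.94 for CEH-60 in replicate 2 and 4.35 for UNC-62, with no peak in DLS435. The pha-2 site (X:637629-638079) had CEH-60 folds of 2.55 in DLS435 and 3.37 in replicate 2 and an UNC-62 fold of 11.8. Neurons had 1 bound marker and the hypodermis 1, neither at a lost site, and the germline had none of 6 bound.

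The deleted gene itself limits 1 of the sites. A lost site lay inside ceh-60 (X:6522577-6523102, 2.68-fold), 93 bp from a DLS422 interval, and the extent of the deletion ok1485 was not used here. The site at an end of the gene (X:6530441-6531226) was kept, with 2.89 in DLS422 and 3.96 in OP201. At pqm-1 there was no CEH-60 peak in replicate 2, so that gene could hold no lost site.

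Most lost sites stood alone. With sites up to 5000 bp apart joined, 299 stood alone and 102 lay in 45 runs of 2 or more, and how other peaks group was not measured. Beside vit-2, runs of 3 or more lay at ndg-4 and mstr-2 (4 sites over 2497 bp), at vit-5, at spp-14 and vit-1, at calu-1 and ZC8.6, at aldo-2 and mig-21, at fbxl-5 and srr-9, and at tbc-1 with flwr-1 and F20D1.22 (3 sites each). At ndg-4 and mstr-2 PQM-1 folds were 1.60 to 2.45 under a CEH-60 interval of 3.85-fold, and the nearest DLS422 interval was 24494 bp or more away. The sites of a run share their surroundings and are not independent.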

How the data were processed

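Peak lists were used as deposited, 1 for each of 8 immunoprecipitated samples of 10, grouped by strain, antibody and replicate per the labels, and the 2 input samples were not analysed here. Per the submitters' processing notes, the authors worked with Bowtie2, SAMtools, deepTools and MACS2. No source used here gives the build, the control of each call or the treatment of duplicate reads. The deposited lists hold a fold enrichment (a ratio of summit signal to local background), −log10 p-value and −log10 q-value at the summit, and a score, which the authors' lists give and which was not used. With depth unknown, the number of peaks limits precision.

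Sites were classed by interval overlap of 1 bp or more with Python 3.11.15, numpy 2.4.6, pandas 2.3.3 and scipy 1.17.1, and figures were drawn with matplotlib 3.10.9. The classing was tested on simulated data. Gene names came from a WBcel235 table with 19971 protein-coding genes. Shifting summits of each list against those genes gave best shifts of −20 to 20 bp, and no coordinate of the table is printed. Of 1744 listed genes, 1742 were found.

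The sites and gene lists were chosen with earlier results of these data known. Named genes are the 10 lost sites of highest fold for PQM-1 and for CEH-60, the 5 highest kept sites, up to 4 genes for each list, those at the edge of the rule, the vitellogenins, ceh-60, unc-62, pqm-1 and elt-2. Genes named for runs of sites were chosen after their values were seen. Alternatives were another overlap rule, stricter peaks, a gap of 1000 bp, replicate 1, a shortened OP201 list and a narrower gene end. No sequence is shown, since no genome was used here.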

Additional observations from a re-analysis of the deposited data

How the results depend on the processing

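With CEH-60 replicate 1, from the other protocol and with 9008 nuclear peaks, in place of replicate 2, lost sites numbered 1317, which was 26.8% of shared sites, with 13.4% found in DLS435, 23.3% with UNC-62, 25.7% on X, 941 genes and a median summit distance of 44 bp. The share of shared sites lost was 26.0% where 50% of each interval had to overlap, 18.7% with summits within 200 bp, 12% with −log10 q of 5 or more in OP201 and CEH-60, 19.6% with that limit in DLS422, 10.3% with no DLS422 interval within 1000 bp and 12.3% with the OP201 list shortened to 5020 peaks. The share found in DLS435 was 36.4% with the 50% overlap and 50.4% with the stricter OP201 and CEH-60 peaks, and that with UNC-62 was 38.2% and 64.3%. Genes numbered 153 with 500 bp outside a gene end, and the median summit distance was 30 bp with either other overlap rule. The remaining 51 of 71 values stayed within 1.5 times a count or within the 95% interval of a share or median. Those include 1 site for each CEH-60 interval (386 sites) and leaving out sites whose CEH-60 interval holds a kept site (385), both chosen after seeing the data. Under the 50% overlap, the summit rule and replicate 1, loss stayed lower with CEH-60 than without in each of the 4 quartiles, and UNC-62 stayed more frequent at lost sites in each. The mIgG1 peaks did so under the 50% overlap, but not in the strongest quartile under the summit rule (83.1% against 83.6%). With replicate 1 they were not more frequent in the second quartile (37.6% against 38.7%) or the strongest (81.0% at both). The cause of these shifts was not tested. No paired analysis was possible because each PQM-1 strain and each short-crosslink CEH-60 strain has 1 library, and the result comes from no test. Depth is unknown, which limits what a missing DLS422 peak at a weak site shows.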

Other observations

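The following genes with lost sites were picked after their values were seen, and only rpl-10a and hsp-90 stand in a family list, so their number is not a result and no theme is drawn from them. The glycolysis genes aldo-2 (PQM-1 folds of 2.36 and 1.98), pyk-1 (2.47) and gpd-3 (2.11) had lost sites, as did the citrate synthase gene cts-1 (2.04), the ATP synthase gene atp-5 (2.51), the elongation factor genes eef-1A.2 (2.87) and eef-1G (2.67), the ribosomal protein gene rpl-10a (2.58) and the chaperone gene hsp-90 (1.99). CEH-60 folds in replicate 2 were 3.54 at pyk-1, 3.16 at rpl-10a and 2.93 at eef-1G, where UNC-62 stood at 16.6, and 1.80 to 2.23 at hsp-90, cts-1, eef-1A.2, gpd-3, aldo-2 and atp-5. The CEH-60 summit at pyk-1 was 889 bp from the PQM-1 summit of the 2.47-fold site. It was 23 bp from that of a further lost site inside pyk-1 (2.37). DLS435 had a CEH-60 peak at pyk-1, rpl-10a and eef-1G and at none of the other 6.

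Some lost sites of high PQM-1 fold had no gene end nearby. The highest were a site inside abts-4 (X:6761303-6761543, 3.39, 240 bp from a DLS422 interval), a site inside Y102A11A.9 (X:2014620-2014884, 3.22), a site 3120 bp from ftt-2 (X:11608204-11608786, 3.15) and a site 7888 bp from Y23H5B.5 (I:2513998-2514382, 3.12). A site 1372 bp from the hypoxia factor gene hif-1 (V:20778882-20779182, 3.06) lay 415 bp from a DLS422 interval.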
